A study of Homo sapiens with 40 samples.

Results

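The mRNAs of 8 endoplasmic reticulum (ER) chaperones and folding enzymes, HSPA5, HSP90B1, CALR, CANX, PDIA3, PDIA4, PDIA6 and DNAJB9, were followed through 40 RNA-Seq libraries of HEK293 cells, an established human embryonic kidney line. They were picked by gene symbol from the 55765 symbols counted, by a rule that uses no value but was set with earlier results of these data known, and all 8 were measured in all 12 groups. For the RNA immunoprecipitation experiment (RIP-Seq), untreated cells gave 4 groups of 3 libraries: total RNA, and RNA recovered with antibodies against endogenous eIF4A1, eIF4A2 or DDX6 (IP), 3 DEAD-box RNA helicases. In the sucrose gradient experiment, cells were transfected with a control siRNA or with one that targets CNOT1 (on which the Ccr4-Not deadenylase is assembled), and each treatment gave input RNA, a pool of subpolysomal fractions 1 to 5 and a pool of polysomal fractions 6 to 11, with 4 libraries per group. In the third experiment, total RNA came from cells given control siRNA or a mix of siRNAs against TNRC6A and TNRC6B, with 2 libraries per group. An siRNA lowers its target for a limited time and not fully, no IP with a control antibody was analysed here, the identity of the line was not checked against markers, and the labels do not say whether replicates came from separate cultures, so p-values measure the spread between these samples.

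Proteins bound for secretion or for membranes fold in the ER lumen, where chaperones hold unfolded chains, lectins retain glycoproteins until they are folded, and protein disulfide isomerases form and shuffle disulfide bonds. When unfolded chains accumulate, the sensors ATF6, IRE1 and PERK start the unfolded protein response (UPR), which raises transcription of many of these genes. Their own mRNAs encode signal peptides and are translated by ribosomes docked at the ER.

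HSPA5 (BiP, the ER member of the HSP70 family; chr9:127997132-128003661, reverse strand, GRCh37) and HSP90B1 (GRP94, its HSP90; chr12:104323885-104347709, forward) are the general chaperones, and DNAJB9 (ERdj4, a J-domain partner that acts on BiP; chr7:108210311-108215294, forward) is a co-chaperone. Calreticulin, the soluble lectin, is encoded by CALR (chr19:13049392-13055303, forward) and its membrane-bound relative calnexin by CANX (chr5:179105629-179158642, forward). PDIA3 (ERp57, the isomerase that works with both lectins; chr15:44038592-44065477, forward), PDIA4 (ERp72; chr7:148700154-148725754, reverse) and PDIA6 (P5; chr2:10923517-10978103, reverse) are disulfide isomerases. Reads were counted over the exons of each gene.

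The known promoter element of this class is the ER stress response element (ERSE), in which NF-Y binds the CCAAT end and ATF6 the CCACG end. It was searched as CCAAT and CCACG with 9 bases between them, on both strands of the RefSeq promoter windows (GRCh38.p14, 250 bases before to 50 bases after each annotated start), which hold 7 of the 8 genes, all but PDIA3. An exact match lay in a window of 5 of these 7 genes, while 25 of all 27305 genes with a window, 0.0916%, held one. The element is known from this class of genes, so this count is not independent of how the 8 were chosen and is no test. The matches in the 5 genes are shown 5′ to 3′ on the strand of the motif, with the motif's fixed letters in capitals.

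HSPA5, chr9:125241391-125241409: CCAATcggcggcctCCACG
HSP90B1, chr12:103930216-103930234: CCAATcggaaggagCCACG
HSP90B1, chr12:103930321-103930339: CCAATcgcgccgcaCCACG
CALR, chr19:12938384-12938402: CCAATgatggtcgaCCACG
CANX, chr5:179698778-179698796: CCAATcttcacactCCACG
PDIA6, chr2:10812853-10812871: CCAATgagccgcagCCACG

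The matches began between 66 (HSPA5) and 225 (CALR) bases before the start of their window's gene, and those at 89 bases in HSP90B1 and in CALR lay on the strand opposite to the gene. CANX had 4 windows and PDIA6 had 2, for alternative starts, and each match lay in 1 of them. PDIA4 and DNAJB9 held no exact match. The related ERSE-II (ATTGG and CCACG with 1 base between them), which shares the CCACG end, and the UPR element, or UPRE (TGACGTGG), which contains that end in reverse complement, matched none of the 7 genes, and 0.0696% and 0.927% of all genes. A match here describes letters only, and its use in these cells was not measured.

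Their mRNAs (GENCODE canonical transcripts, GRCh37) differed among themselves in their UTRs. The median 5′UTR was 104 nt in the 8 mRNAs and 147 nt in the 12793 protein-coding genes tested in the RIP-Seq libraries, and its median GC content was 73.3% against 67.5% in the 12243 genes with a 5′UTR of at least 20 nt. These medians cover unlike members. HSPA5 (217 nt) and DNAJB9 (240 nt) had the longest 5′UTRs of the 8, above the median of the genes tested, and HSPA5 had the lowest 5′UTR GC content of the 8 (63.6%) and PDIA6 the highest (82%). HSP90B1 had the shortest 3′UTR (267 nt against a median of 1356 nt over the genes tested), and DNAJB9 the shortest coding region (669 nt against a median of 1440 nt). These are descriptions of 8 chosen genes and carry no test.

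DNAJB9 was far less abundant than the other 7 mRNAs. Levels are given in CPM, the count of a gene scaled to a common library total, after TMM scaling within each experiment, and only for this comparison between genes they were divided by mRNA length. In input RNA of control cells CALR stood highest at 405 ± 28.2 CPM per kb (SD, n = 4), followed by HSP90B1 at 338 ± 3.52, CANX at 267 ± 4.81, PDIA6 at 197 ± 10.1, HSPA5 at 170 ± 11.7, PDIA3 at 148 ± 8.23, PDIA4 at 67.3 ± 4.08 and DNAJB9 at 9.22 ± 1.31. Among neighbours in that order, the libraries of HSPA5 and PDIA3 overlapped and the others did not. RIP-Seq total RNA gave the same order but with CALR (401 ± 21.9, n = 3) and HSP90B1 (399 ± 62.3) overlapping. DNAJB9 had between 253 and 2544 reads in each library, so that its CPM carries more counting error than the others.

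Total counts ran from 15353317 to 46018900 per library, and all 8 mRNAs passed the filter on low counts in each experiment. The targeted genes were lowered where the labels say so, with exceptions in polysomal RNA. CNOT1 stood at 36.8 to 41.4 CPM in input of CNOT1 siRNA cells against 628 to 711 in controls (log2 fold change -4.08 ± 0.07 SE, edgeR FDR 2.41e-16). In polysomal RNA, however, the library labelled control siRNA replicate 3 held 28.3 CPM of CNOT1 and the library labelled CNOT1 siRNA replicate 3 held 631, each at the level of the other treatment. Polysomal results of the chaperone mRNAs are therefore given as labelled and without these 2 libraries. TNRC6A (-1.80 ± 0.29) and TNRC6B (-1.68 ± 0.29) were lower in each TNRC6A/B siRNA library than in each control library. No gene reached an FDR below 0.05 there in edgeR without a replicate block.

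**Figure D1:**
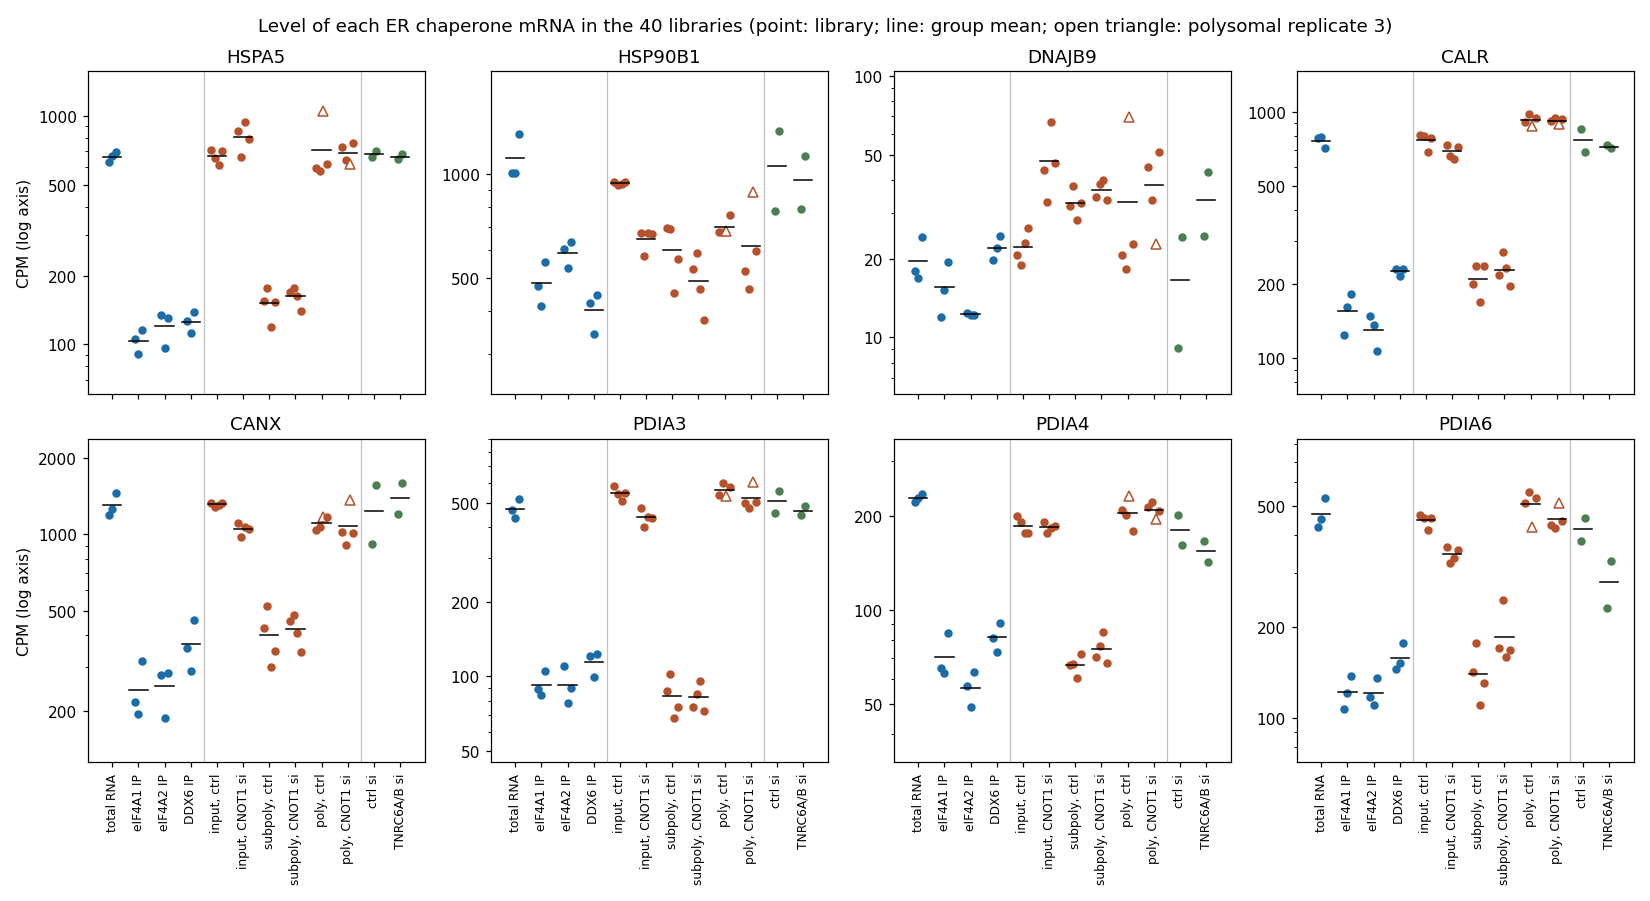
Level of each mRNA (CPM, log axis) in every library, by group, with RIP-Seq in blue, gradients in brown and the TNRC6 experiment in green. Points are libraries, lines are group means and open triangles are the polysomal libraries of replicate 3. HSP90B1 lies less far below total RNA in the eIF4A1 and eIF4A2 IPs than the other abundant mRNAs, and about as far as PDIA4 and PDIA6 in the DDX6 IP. DNAJB9 overlaps its total RNA level in the eIF4A1 and DDX6 IPs and lies below it in the eIF4A2 IP.

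The RIP-Seq libraries address which mRNAs were recovered with each helicase. Relative to total RNA, 7 of the chaperone mRNAs were depleted in all 3 IPs, and 6 of them were among the 5% of genes with the lowest fold changes. HSPA5 stood at 629, 669 and 692 CPM in total RNA, at 106, 90.5 and 115 in the eIF4A1 IP, at 134, 96.4 and 131 in the eIF4A2 IP and at 126, 112 and 138 in the DDX6 IP. Every IP library lay below every total RNA library, with log2 fold changes of -2.68 ± 0.17 (FDR 7.84e-07), -2.46 ± 0.16 (4.35e-07) and -2.41 ± 0.16 (8.11e-06). These values are shares of each library, so they do not give how much RNA was recovered per cell.

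Of the 8 mRNAs, 7 were lower in the eIF4A1 IP at an FDR below 0.05, all 8 in the eIF4A2 IP and 7 in the DDX6 IP, and none was higher. Among all 17474 genes tested, 26.5%, 25.8% and 23.3% were lower, respectively. The median log2 fold change of the 8 was -2.12, -2.18 and -1.67, and the median of all genes was 0.04, 0.01 and 0.01. The 3 comparisons share the total RNA libraries and are not independent of each other.

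The lectins and their isomerase were depleted about as much as HSPA5 in the eIF4A2 IP. In the eIF4A1 and DDX6 IPs their estimates were less negative than those of HSPA5, and this difference between mRNAs was not tested. CALR fell from 784, 788 and 714 CPM in total RNA to 124, 161 and 183 with eIF4A1, 148, 137 and 107 with eIF4A2 and 231, 216 and 231 with DDX6, giving log2 fold changes of -2.29 ± 0.17, -2.54 ± 0.17 and -1.75 ± 0.17. CANX, at 1190, 1260 and 1450 CPM in total RNA and between 189 and 459 in the 9 IP libraries, changed by -2.42 ± 0.24, -2.38 ± 0.24 and -1.82 ± 0.23, and PDIA3, at 465, 432 and 515 CPM in total RNA and between 78.3 and 123 in the IPs, by -2.35 ± 0.16, -2.34 ± 0.16 and -2.04 ± 0.16. In the eIF4A2 IP, HSPA5, CALR, CANX and PDIA3 lay below more than 99% of genes, at percentiles 0.395, 0.315, 0.498 and 0.549 of the log2 fold change. The other disulfide isomerases followed. PDIA4 stood at 222, 228 and 236 CPM in total RNA and between 48.8 and 90.6 in the IPs, with log2 fold changes of -1.69 ± 0.15, -2.02 ± 0.15 and -1.48 ± 0.15. PDIA6 stood at 426, 454 and 531 CPM in total RNA and between 107 and 176 in the IPs, with -1.95 ± 0.15, -1.96 ± 0.15 and -1.58 ± 0.15. Neither had an IP library within reach of its total RNA libraries. The FDR of these 5 mRNAs was at most 6.17e-05 in each comparison.

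HSP90B1 was depleted less than HSPA5, its partner in the lumen. Its level was 1010, 1010 and 1310 CPM in total RNA, 474, 414 and 554 in the eIF4A1 IP, 604, 533 and 636 in the eIF4A2 IP and 421, 343 and 446 in the DDX6 IP. All IP libraries lay below all total RNA libraries, and the log2 fold changes were -1.21 ± 0.17 (FDR 7.6e-05), -0.91 ± 0.17 (0.000623) and -1.46 ± 0.17 (3.77e-05).

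DNAJB9 was depleted with eIF4A2 and not called with eIF4A1 or DDX6. It stood at 17.9, 16.9 and 24.2 CPM in total RNA, 12, 15.2 and 19.4 in the eIF4A1 IP, 12.4, 12.2 and 12.2 in the eIF4A2 IP and 19.8, 21.9 and 24.4 in the DDX6 IP. Its groups overlapped with total RNA in the eIF4A1 and DDX6 IPs and not in the eIF4A2 IP. The log2 fold change was -0.34 ± 0.18 (FDR 0.137), -0.68 ± 0.18 (0.00741) and 0.17 ± 0.18 (0.472). With the replicate block the first became -0.34 ± 0.13 (FDR 0.0316), and without eIF4A1 IP replicate 3 it was -0.52 (0.0289), while it ranged from -0.52 to -0.17 over the removal of each library in turn.

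**Figure D2:**
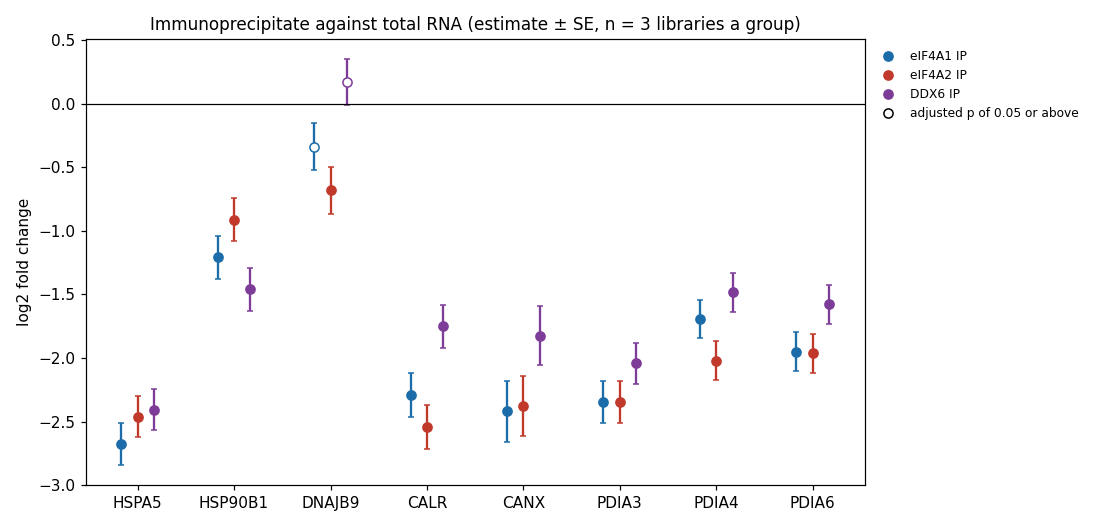
Log2 fold change of each IP against total RNA with its SE (n = 3 libraries per group). Filled points passed an FDR of 0.05. HSPA5, CALR, CANX and PDIA3 lie between -2.68 and -1.75, HSP90B1 between -0.91 and -1.46, and DNAJB9 between -0.68 and 0.17.

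Other gene groups of ER folding were depleted less, and the depletion was not limited to the ER. Among all genes, 26.5%, 25.8% and 23.3% were lower in the eIF4A1, eIF4A2 and DDX6 IPs. Of 28 further ER folding genes tested, 18, 19 and 18 were lower in the eIF4A1, eIF4A2 and DDX6 IPs and 1, 0 and 1 higher, with medians of -0.86, -0.69 and -0.59. PRKCSH, the regulatory subunit of glucosidase II, changed by -2.07, -2.58 and -1.99. Of 27 genes of translocation and ER retrieval, 20, 23 and 12 were lower and 0, 0 and 1 higher (medians -0.64, -0.97 and -0.42), with SEC62, a translocon partner, at -1.96, -2.06 and -1.22. Of 25 cytosolic and mitochondrial chaperones, 16, 19 and 16 were lower and 2, 0 and 1 higher (medians -1.10, -1.16 and -0.94), led by the HSP110 chaperone HSPA4 at -2.80, -2.59 and -2.21. The UPR signalling list of 16 genes was mixed, with 7, 5 and 5 higher and 3, 5 and 2 lower. In it, ATF4, the transcription factor downstream of PERK, was higher with eIF4A1 (1.51 ± 0.20) and DDX6 (1.44 ± 0.20), and the sensor ATF6 was lower in all 3 IPs (-1.70, -1.52 and -1.19). ER-associated degradation was split as well, with 5, 4 and 5 of 21 higher and 7, 8 and 8 lower. The mannosidase-like EDEM1 rose (1.75, 1.96 and 1.46) and the lectin OS9 fell (-2.09, -2.04 and -2.01).

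The IPs were also compared with each other. Between eIF4A2 and eIF4A1 none of the 8 was called, where 1.06% of genes were, and the fold changes ran from -0.34 to 0.30 with a median of -0.005. Same-numbered RIP-Seq samples deviated together, and with the replicate number as a block PDIA4 was called lower with eIF4A2 (-0.33 ± 0.10, FDR 0.0435), where 15.8% of genes were called. Between eIF4A2 and DDX6, 4 of the 8 were called, against 21.1% of all genes. HSP90B1 was higher with eIF4A2 (0.55 ± 0.17, FDR 0.0361), and DNAJB9 (-0.85 ± 0.18, 0.00794), CALR (-0.79 ± 0.17, 0.00674) and PDIA4 (-0.54 ± 0.15, 0.0235) were lower. With the block 7 were called, against 40.5% of all genes, the 3 further ones being CANX (-0.55 ± 0.14, FDR 0.00705), PDIA6 (-0.38 ± 0.09, 0.00633) and PDIA3 (-0.31 ± 0.11, 0.0444), all lower with eIF4A2.

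The calls of HSP90B1 and PDIA4 between eIF4A2 and DDX6 depended on single libraries. HSP90B1 was not called after removal of eIF4A2 IP replicate 1 (FDR 0.101) or 3 (0.0963), DDX6 IP replicate 1 (0.0713), 2 (0.142) or 3 (0.0519), nor without the filter on low counts (0.0672). PDIA4 was not called without eIF4A2 IP replicate 1 (0.0692) or 2 (0.0723) or DDX6 IP replicate 1 (0.0545) or 3 (0.0806). CALR and DNAJB9 kept their calls under each removal and each other setting tried. In the remaining pair, DDX6 against eIF4A1, none of the 8 was called by edgeR, where 0.0916% of genes were. DESeq2 called CALR there (0.55 ± 0.17, adjusted p 0.0365), and the block called CALR (0.54 ± 0.15, FDR 0.0443), CANX (0.60 ± 0.14, 0.0205), PDIA6 (0.37 ± 0.09, 0.0288) and DNAJB9 (0.52 ± 0.13, 0.0258), all higher with DDX6, where it called 9.90% of genes.

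The gradient libraries address how loss of CNOT1 alters mRNA levels and ribosome loading. In input RNA, CNOT1 siRNA raised DNAJB9 and HSPA5 and lowered most of the others. DNAJB9 stood at 20.6, 19, 22.9 and 26.3 CPM in control cells and 43.6, 33.0, 66.5 and 46.4 after CNOT1 siRNA, so that the groups did not overlap (1.09 ± 0.16, FDR 2.02e-05). This change lay above 97.1% of all genes. HSPA5 stood at 708, 652, 611 and 703 CPM against 856, 661, 941 and 789, a smaller rise with overlapping groups (0.28 ± 0.09, FDR 0.0119).

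HSP90B1 went the other way. It stood at 948, 928, 936 and 948 CPM in controls and 672, 577, 672 and 669 after CNOT1 siRNA, with no overlap (-0.54 ± 0.06, FDR 1.47e-06). PDIA6 fell from 468, 457, 416 and 457 CPM to 365, 323, 337 and 358 (-0.38 ± 0.06, FDR 4.56e-05). CANX fell from 1330, 1280, 1310 and 1330 CPM to 1110, 972, 1070 and 1050 (-0.32 ± 0.06, 0.000158). PDIA3 fell as much, from 581, 543, 507 and 548 CPM to 477, 400, 436 and 433 (-0.32 ± 0.06, 0.000401), and in these 3 mRNAs, too, each CNOT1 siRNA library lay below each control. The share of all genes that separate in this way was not counted. CALR stood at 803, 802, 691 and 787 against 736, 665, 643 and 722 CPM, overlapping groups that differed by -0.16 ± 0.07 at an FDR of 0.049. That call was lost with RLE scaling (0.0551) and without control input replicate 1 (0.125), 2 (0.123) or 4 (0.094) or CNOT1 siRNA input replicate 2 (0.103) or 3 (0.129), and kept with the replicate block (0.0042). PDIA4, at 177 to 200 CPM in controls and 177 to 192 after CNOT1 siRNA, was not called (-0.02 ± 0.06, FDR 0.841). In all, 2 of the 8 rose and 5 fell, where 28.0% and 29.6% of 16776 genes did, so the rises were about as frequent as among all genes. With all 24 gradient libraries in 1 fit 4 of the 8 were called, and HSPA5 (FDR 0.18), CALR (0.266) and CANX (0.0875) were not. That fit called 4859 of 16776 genes in place of 9652.

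In the surrounding lists, falls outnumbered rises among ER folding and translocation genes and rises outnumbered falls among cytosolic and mitochondrial chaperones. Among all genes, 28.0% rose and 29.6% fell. Of the 28 further ER folding genes, 6 rose and 14 fell after CNOT1 siRNA (median -0.19), with MOGS, glucosidase I, at 0.73 ± 0.06 and UGGT1, the folding sensor of glycoproteins, at -0.45 ± 0.06. Translocation and retrieval had 5 up and 16 down of 27 (median -0.27), led by SSR1 of the translocon-associated complex at -0.90 ± 0.06. Cytosolic and mitochondrial chaperones had 13 up and 2 down of 25 (median 0.18), led by the stress-inducible HSP70 genes HSPA1B (1.72 ± 0.19) and HSPA1A (1.58 ± 0.19), whose near-identical sequences make their separate counts uncertain. Of the 16 UPR signalling genes 6 rose and 4 fell, with XBP1, the transcription factor spliced by IRE1, at 0.65 ± 0.11 and ATF6B at -0.83 ± 0.07. Degradation genes were divided, 9 up and 7 down of 21, with HERPUD1, a UPR-responsive part of the retrotranslocation complex, at 0.65 ± 0.15.

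In subpolysomal RNA none of the 8 was called after CNOT1 siRNA, where 25.5% of genes were, and their fold changes ran from -0.30 (HSP90B1) to 0.41 (PDIA6). PDIA6 stood at 141, 177, 110 and 130 CPM in controls and 170, 245, 159 and 167 after CNOT1 siRNA, and control replicate 2 lay above 3 of the CNOT1 siRNA libraries. The same-numbered subpolysomal samples deviated together, and with the replicate block PDIA6 was called higher (0.41 ± 0.07, FDR 3.74e-05) and HSP90B1 lower (-0.30 ± 0.09, 0.00756), 2 of 8 where the block called 57.0% of all genes. PDIA6 was called as well without control subpolysomal replicate 2 (0.55 ± 0.17, FDR 0.0402). DNAJB9 stood at 31.7, 37.8, 28.1 and 32.6 against 34.5, 38.6, 39.9 and 33.4 CPM, an overlapping pair of groups (0.17 ± 0.13, FDR 0.36).

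Polysomal RNA gave no called gene as labelled, 0.00% of 16776, with 181 genes at an unadjusted p below 0.05 in edgeR and 205 in DESeq2, which called none either. Without the 2 libraries of replicate 3, 34.3% of 17115 genes were called and 4 of the 8 mRNAs were among them. DNAJB9 stood at 20.6, 18.3 and 22.7 CPM in controls and 44.9, 33.6 and 51.2 after CNOT1 siRNA (1.08 ± 0.15, FDR 0.000559), and in the library labelled control siRNA replicate 3 at 69.6 and in that labelled CNOT1 siRNA replicate 3 at 22.7. As labelled, its fold change was 0.22 ± 0.42 (FDR 0.924). HSPA5 rose without these libraries, from 594, 573 and 616 to 733, 638 and 764 CPM (0.26 ± 0.09, FDR 0.0476). HSP90B1 fell from 679, 679 and 758 to 523, 462 and 599 CPM (-0.42 ± 0.11, 0.0113), and PDIA6 from 510, 556 and 530 to 434, 422 and 446 CPM (-0.29 ± 0.08, 0.0148). The directions of these 3 were those seen in input RNA. CANX (-0.16 ± 0.09, FDR 0.195) and PDIA3 (-0.21 ± 0.08, 0.0619) were not called, nor were CALR (-0.02 ± 0.08) and PDIA4 (0.13 ± 0.08). The groups overlapped for CALR and PDIA4 and not for the other 6, which include CANX and PDIA3. The share of all genes without overlap was not counted, so this describes the libraries only. As labelled HSPA5, HSP90B1 and PDIA6 were at -0.05 ± 0.20, -0.18 ± 0.19 and -0.16 ± 0.12.

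**Figure D3:**
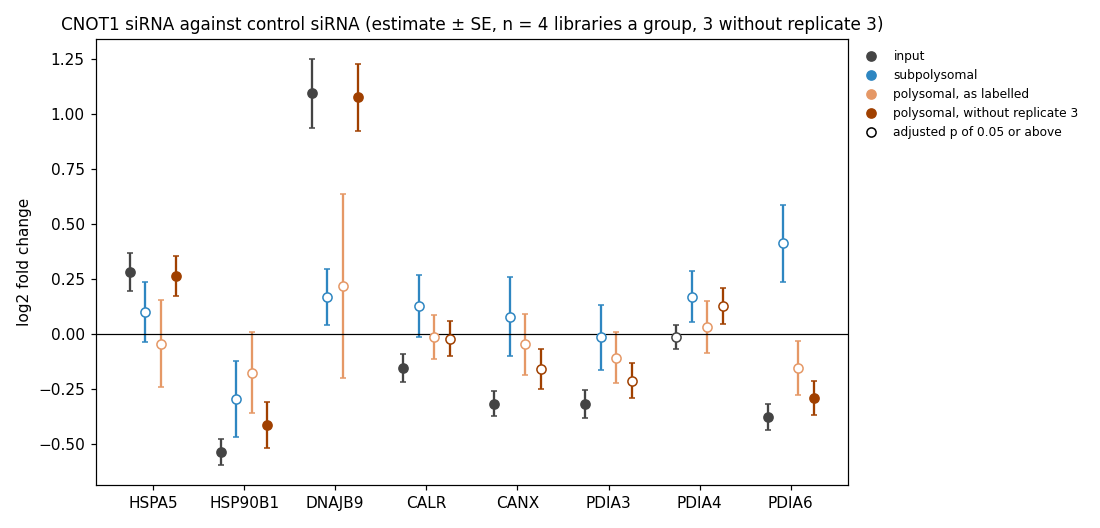
Log2 fold change of CNOT1 siRNA against control siRNA with its SE, in input, subpolysomal and polysomal RNA (n = 4 libraries per group, 3 without replicate 3). Filled points passed an FDR of 0.05. DNAJB9 is near 1.1 in input and in polysomal RNA without replicate 3 and at 0.17 in subpolysomal RNA, and HSP90B1 lies below 0 in each fraction.

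Comparing the polysomal with the subpolysomal pool shows where in the gradient each mRNA sat relative to the average gene. In control cells, 6 of the 8 mRNAs were more polysomal than the average gene, and HSP90B1 was not called. DNAJB9 was not called as labelled, with log2 ratios of single gradients from -1.03 to 1.29, the highest in replicate 3. It was lower in polysomal RNA without the replicate 3 libraries. PDIA3 showed the largest difference, with 538, 598, 531 and 579 CPM in polysomal RNA and 87.5, 102, 67.8 and 75.6 in subpolysomal RNA (2.75 ± 0.17, FDR 1.47e-07), above 99.8% of genes. HSPA5, at 594, 573, 1050 and 616 against 155, 177, 119 and 153 CPM, followed at 2.23 ± 0.22 (FDR 3.64e-06) or, without the replicate 3 libraries, 1.99 ± 0.14. CALR stood at 914, 979, 878 and 946 against 200, 236, 169 and 237 CPM (2.14 ± 0.16, 4.34e-07). PDIA6 was at 1.86 ± 0.17 (2.3e-06), PDIA4 at 1.62 ± 0.14 (1.39e-06) and CANX at 1.48 ± 0.18 (1.95e-05). For all 6 the polysomal libraries lay above the subpolysomal ones. How many of all genes separate in this way was not counted, so this describes the libraries only. Both pools are scaled to their own totals, so a difference of 0 marks an mRNA distributed like the average gene (median of all genes -0.02).

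HSP90B1, with 679, 679, 681 and 758 CPM in polysomal and 697, 690, 452 and 567 in subpolysomal RNA of control cells, was not called (0.22 ± 0.16, FDR 0.261). DNAJB9 was not called as labelled either (0.01 ± 0.36, FDR 0.984), but without the replicate 3 libraries it was lower in polysomal RNA (-0.66 ± 0.15, FDR 0.00254), the reverse of the other 6. Hence 6 of 8 were higher in polysomal RNA, where 30.5% of genes were. Without replicate 3 the same 6 stood at 1.47 to 2.79 and 1 of 8 was lower, where 30.2% and 35.1% of genes were.

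After CNOT1 siRNA the same 6 mRNAs were called higher in polysomal RNA. They stood at 2.66 ± 0.13 (PDIA3), 2.09 ± 0.13 (HSPA5), 2.00 ± 0.12 (CALR), 1.48 ± 0.12 (PDIA4), 1.35 ± 0.15 (CANX) and 1.29 ± 0.15 (PDIA6), with FDR of at most 5.09e-06, where 32.7% of genes were higher. Without replicate 3 they ranged from 1.23 (CANX) to 2.59 (PDIA3), PDIA6 being at 1.24. HSP90B1 (0.34 ± 0.19, FDR 0.139) and DNAJB9 (0.06 ± 0.21, 0.812) were not called, nor were they without replicate 3 (0.12 ± 0.15 and 0.25 ± 0.15), where 34.8% of genes were higher.

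Most members of 3 other lists were also higher in polysomal RNA. Among all genes tested, 30.5% were higher in control cells as labelled, and 30.2% were higher and 35.1% lower without replicate 3. In control cells, as labelled, this held for 23 of the 28 further ER folding genes, 18 of the 27 translocation and retrieval genes and 21 of the 25 cytosolic and mitochondrial chaperones, with medians of 1.08, 0.96 and 1.38. PPIB, the ER cyclophilin, stood at 2.41 ± 0.17, the retrieval receptor gene KDELR1 at 1.90 ± 0.18 and HSPA4 at 2.38 ± 0.20. UPR signalling genes were divided, 8 higher and 5 lower of 16, with ATF4 at -1.46 ± 0.16 and DDIT3, the CHOP transcription factor, at -1.48 ± 0.37. Of the 21 degradation genes 10 were higher and 4 lower. Without replicate 3 the numbers higher were 23, 19 and 20 in the first 3 lists, with 7 higher and 5 lower in UPR signalling and 11 and 3 in degradation. PPIB was then at 2.50 ± 0.15, KDELR1 at 2.06 ± 0.12, HSPA4 at 2.25 ± 0.16, ATF4 at -1.46 ± 0.16 and DDIT3 at -2.13 ± 0.19.

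**Figure D4:**
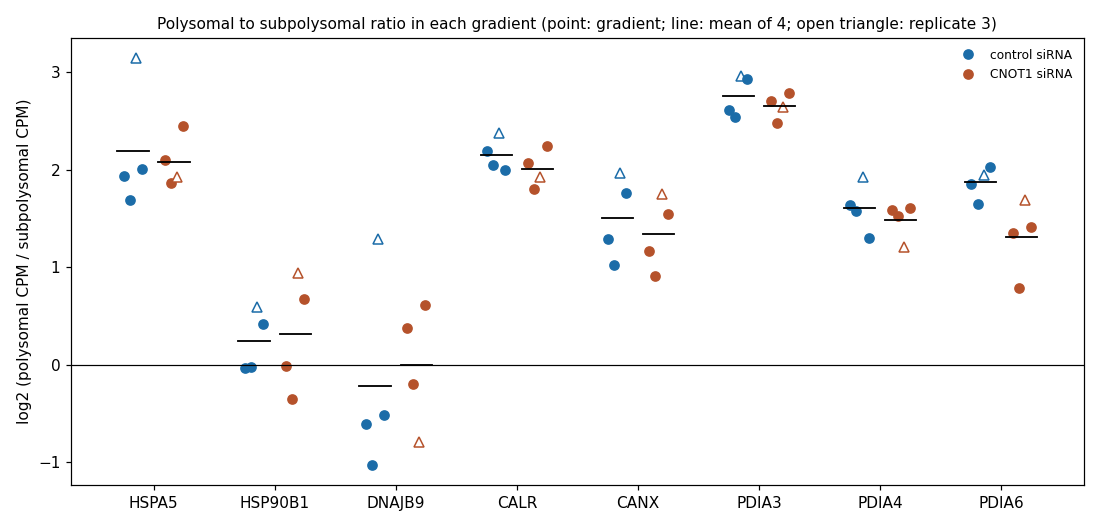
Log2 ratio of polysomal to subpolysomal CPM of each mRNA in each gradient, by siRNA. Points are gradients, lines are means of 4 and open triangles are the gradients of replicate 3, whose polysomal libraries go against their labels. HSP90B1 (means 0.24 and 0.31) and DNAJB9 (-0.22 and -0.002) have lower means than the other 6, whose gradients lie between 0.78 and 3.15. Replicate 3 of DNAJB9 with control siRNA (1.29) and of HSP90B1 with CNOT1 siRNA (0.94) reach into that range.

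Whether CNOT1 siRNA altered the polysomal to subpolysomal ratio was tested as an interaction. None of the 8 was called as labelled, where 0.918% of genes were, and the differences ran from -0.57 (PDIA6, FDR 0.236) to 0.12 (HSP90B1, 0.87). Without both replicate 3 libraries, where 9.01% of genes were called and 5.18% rose, DNAJB9 was the one mRNA of the 8 called. Its ratio by gradient, on the log2(CPM + 0.5) scale, was -0.61, -1.03 and -0.52 in control cells and 0.38, -0.20 and 0.61 after CNOT1 siRNA, with no overlap, and the difference was 0.91 ± 0.21 (FDR 0.0138). PDIA6 moved the other way but did not reach the threshold (-0.71 ± 0.22, FDR 0.0574), its ratios being 1.85, 1.65 and 2.03 in controls and 1.35, 0.78 and 1.41 after CNOT1 siRNA. The other 6 differences lay between -0.24 (CANX) and 0.16 (HSPA5).

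The third experiment asks what loss of TNRC6A and TNRC6B, which link Argonaute to Ccr4-Not, does to total RNA. No gene was called by edgeR without a replicate block, 0.00% of 14064, though 289 had an unadjusted p below 0.05. By DESeq2 8 genes were called, none of them a chaperone mRNA of this group. With the replicate block edgeR called 763 genes, among them DNAJB9 (1.12 ± 0.18, FDR 1.65e-07) and PDIA6 (-0.60 ± 0.15, 0.00377). With 2 libraries per group, the block leaves little from which to estimate the spread. Values below are without it. DNAJB9 was at 9.09 and 24.2 CPM in the control libraries and 24.5 and 42.8 in the knockdown libraries. The lower knockdown value lay just above the higher control value, and the fold change was 1.02 ± 0.57 (FDR 1). It ran from 0.47 without control replicate 1 to 1.94 without control replicate 2, with 0.57 without knockdown replicate 2, and none of these was called. PDIA6 stood at 384 and 457 against 230 and 330 CPM, also without overlap (-0.59 ± 0.25, FDR 1), with -0.35 without knockdown replicate 1 and -0.86 without knockdown replicate 2. The other 6 lay between -0.23 (PDIA4) and 0.18 (CANX), with overlapping groups. Replicates of 1 group differed widely for some of them, as for HSP90B1 at 782 and 1330 CPM in controls. With 2 libraries per group, separation as in DNAJB9 and PDIA6 is easily met by chance. Its share over all genes was not counted.

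Over the 40 libraries, as labelled, 6 of the mRNAs had similar profiles. The profile was log2(CPM + 0.5) centred within each experiment, and each mRNA was compared with the median over the 8. Pearson's r was 0.970 to 0.982 for PDIA4, HSPA5, CALR, PDIA3, CANX and PDIA6, 0.687 for HSP90B1 and 0.079 for DNAJB9. Each member also enters the median, and all genes were measured in the same libraries, so these values are descriptions. Between single mRNAs the highest r was 0.980 for CALR with PDIA4, and the lowest -0.105 for HSP90B1 with DNAJB9. Among 8819 genes of at least 10 CPM in each experiment, the 5 other genes most like the median were HADHB (0.990), a subunit of the mitochondrial trifunctional protein, CCT5 (0.986), a subunit of the cytosolic chaperonin, GNAI3 (0.985), a G protein subunit, CPVL (0.983), a carboxypeptidase, and ANO10 (0.981), a membrane protein of the anoctamin family.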

How the data were processed

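Poly(A)-selected strand-specific RNA was sequenced. The authors aligned reads with TopHat2 to hg19 and counted reads per gene with htseq-count, and the deposited values are raw counts, with a single number for each gene symbol and library. Strand option and annotation release are not given in the sources used here. The authors' deposited table of their edgeR comparisons of each IP with total RNA (fold changes, mean levels, test statistics and p-values) was not used. By default htseq-count sets apart reads with several alignments, which can lower the counts of genes with close copies.

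Counts were analysed with edgeR 4.0.16 (R 4.3.3, limma 3.58.1, data.table, version 1.17.8): filterByExpr, TMM and quasi-likelihood F-tests, two-sided, with Benjamini-Hochberg adjustment (FDR) over all genes tested, 17474 in the RIP, 16776 in the gradient and 14064 in the TNRC6 libraries. RIP and TNRC6 fits used all libraries of the experiment. Gradient fits took filter and scaling from all 24 libraries and the spread from those compared. SE is the absolute log2 fold change over the square root of F. The tests were checked on simulated independent libraries of equal spread. Paired samples and libraries that go against their labels were not simulated, so the check does not cover them. Alternatives were DESeq2 1.42.0, RLE scaling, no filter, a replicate block, other library sets and leaving out each library.

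Same-numbered samples deviated together in the RIP libraries (r 0.173 to 0.884 in 18 pairs), in input (0.127 to 0.587) and in subpolysomal RNA (0.749 to 0.869). For these and the TNRC6 libraries (0.929 in 2 pairs) the block is given where it changes a call or a count. Polysomal samples as labelled did not deviate together, and the block was not run without their replicate 3 libraries. Where the title and the description of 1 total RNA library gave different replicate numbers, the title was used. The text names the 8 mRNAs, the targets, from each further list up to 2 called genes each way with the largest changes and at least 10 CPM, and the 5 genes of most similar profile. The members and lists were chosen with earlier results of these data known. Depth, 15353317 to 46018900 counts per library without molecular identifiers, limits counting error, and intervals beyond the SE are not given.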

Additional observations from a re-analysis of the deposited data

Results flagged for a closer look

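In 48 groups of 4 libraries (8 mRNAs in 6 gradient groups), 6 had a library set apart from the other 3 by Dixon's criterion, which chance alone marks in about 1 group in 20. The criterion weighs a gap against the range of the 4 values, so small shifts are marked where the other 3 lie close together. Polysomal RNA of control cells held 3 of the 6. HSPA5 was at 1050 CPM in the library labelled control siRNA replicate 3 against 573 to 616 in the others, DNAJB9 was at 69.6 in the same library against 18.3 to 22.7, and HSP90B1 was at 758 in control replicate 4 against 679 to 681. In that replicate 3 library CNOT1 was at 28.3 CPM, the level of CNOT1 siRNA cells, and the part of the label in these values was not tested.

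HSP90B1 was at 577 CPM in input of CNOT1 siRNA replicate 2 against 669 to 672, CALR at 691 in input of control replicate 3 against 787 to 803, and PDIA6 at 245 in subpolysomal RNA of CNOT1 siRNA replicate 2 against 159 to 170. The effect of CNOT1 siRNA on DNAJB9 differed between polysomal and subpolysomal RNA by 0.91 on the log2 scale when both polysomal libraries of replicate 3 were left out (edgeR interaction test, FDR 0.0138).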

How the results depend on the processing

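The depletion from the 3 IPs (7, 8 and 7 mRNAs called) and the polysomal position of 6 mRNAs kept direction and call under DESeq2, RLE scaling, no filter, the replicate block, other library sets and the removal of each library. With the replicate block the count of called mRNAs became 1 for eIF4A2 against eIF4A1 (0 before), 7 for eIF4A2 against DDX6 (4), 4 for DDX6 against eIF4A1 (0), 2 in subpolysomal RNA (0) and 2 after TNRC6A/B siRNA (0). DESeq2 gave 1 for DDX6 against eIF4A1, no filter 1 in subpolysomal RNA, and a fit of all 24 gradient libraries 4 in input (7) and 1 in subpolysomal RNA. Without both polysomal libraries of replicate 3, which go against their labels, it was 4 in polysomal RNA (0) and 1 for the interaction (0). Removing single libraries gave 2 to 3 for eIF4A2 against DDX6, 2 without eIF4A2 IP replicate 1, DDX6 IP replicate 1 or DDX6 IP replicate 3, and 0 to 1 in subpolysomal RNA, 1 without control replicate 2. It gave 0 to 0 in polysomal RNA, for the interaction and in the TNRC6 experiment. The cause of these changes was not tested.

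Same-numbered TNRC6 samples deviated together (r 0.929 in 2 pairs), though with 2 libraries per group the pairs are not independent of each other. With the block DNAJB9 was at 1.118 (FDR 1.65e-07) and PDIA6 at -0.604 (0.00377), where 763 of 14064 genes were called. Polysomal samples as labelled did not deviate together (r -0.558 to 0.109), and the block changed no call of these mRNAs there, between pools or in the interaction. These values include the libraries of replicate 3 that go against their labels, so they cannot show whether the other polysomal samples were paired. The block was not run without those libraries.

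Signs turned mainly for values near 0, none of them called before. Between eIF4A2 and eIF4A1, PDIA6 was at 0.002 with DESeq2 and RLE and PDIA3 at -0.03 with no filter and -0.002 with the replicate block. In subpolysomal RNA PDIA3 was at 0.029 with no filter. In polysomal RNA PDIA4 was at -0.004 with DESeq2 and RLE and -0.02 with no filter, and HSPA5 at 0.002 with the replicate block and 0.261 without both libraries of replicate 3. Between the pools of control cells DNAJB9 was at -0.011 with DESeq2, -0.01 with RLE, -0.246 with the replicate block and -0.655 without both libraries. For the interaction DNAJB9 was at -0.024 with no filter, and without both libraries HSPA5 at 0.16 and HSP90B1 at -0.122. After TNRC6A/B siRNA HSPA5 was at 0 with DESeq2 and RLE and 0.023 with no filter.

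Leaving out 1 library at a time, or both libraries of replicate 3, gave ranges across 0 for CANX (-0.083 to 0.273), PDIA3 (-0.141 to 0.106) and PDIA6 (-0.1 to 0.081) between eIF4A2 and eIF4A1, HSPA5 between eIF4A2 and DDX6 (-0.14 to 0.078), and PDIA4 in input (-0.04 to 0.021). In subpolysomal RNA they were HSPA5 (-0.001 to 0.185), CANX (-0.039 to 0.237) and PDIA3 (-0.104 to 0.098), and in polysomal RNA HSPA5 (-0.135 to 0.261), CALR (-0.039 to 0.012), CANX (-0.186 to 0.025) and PDIA4 (-0.03 to 0.126). Between pools they were DNAJB9 in control cells (-0.655 to 0.22) and after CNOT1 siRNA (-0.105 to 0.252). For the interaction they were HSPA5 (-0.235 to 0.16), HSP90B1 (-0.122 to 0.235) and DNAJB9 (-0.151 to 0.906). After TNRC6A/B siRNA they were HSPA5 (-0.091 to 0.062), HSP90B1 (-0.47 to 0.353), CALR (-0.179 to 0.06), CANX (-0.164 to 0.665) and PDIA3 (-0.274 to 0.077), where the lone library of a group is assumed to vary like the other group.

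Over all genes, calls moved from 185 to 700 (DESeq2), 997 (no filter), 2766 (block) and 24 (compared libraries only) for eIF4A2 against eIF4A1, and from 16 to 541, 232, 1730 and 0 for DDX6 against eIF4A1. The block gave 7074 in place of 3685 for eIF4A2 against DDX6 and 9555 in place of 4285 in subpolysomal RNA. The fit of 24 libraries gave 4859 in place of 9652 in input. For the interaction 154 became 580 (DESeq2), 97 (RLE), 302 (no filter), 949 (24 libraries) and 1542 (without both), and in the TNRC6 experiment 0 became 8 (DESeq2), 23 (no filter) and 763 (block). DNAJB9, with 253 to 2544 counts a library, was the mRNA most limited by depth.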
